A study of Sus scrofa with 18 samples.

Results

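The mitochondrial carrier family SLC25 was followed through a time course of all-trans retinoic acid (ATRA) in a pig kidney cell line. Members were chosen by symbol, as every gene whose symbol begins with SLC25A in the probe annotation of the array, and where a gene had several probe sets, the brightest on average across the 18 arrays stood for it. This gave 33 genes of the 12361 named genes on the array. SLC25A29 and SLC25A47 had a second probe set each, and 1 probe set that carried the symbols of 2 family members was left out because it names no single gene.

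LLC-PK1 is an epithelial line which, per the labels, came from the kidney of a male pig of the Hampshire breed. The cells had grown beyond confluence before ATRA, the ligand of the nuclear retinoic acid receptors, was added; the sources used here do not state the dose. RNA was taken after 0, 0.5, 1, 4, 8 and 12 h from 3 cultures per time that the labels call biological replicates, and the 18 arrays each hold 27558 probe sets on a log2 scale. The 0 h arrays were the control throughout, so hours in culture and hours of ATRA cannot be told apart, and all 5 comparisons with 0 h share those 3 arrays. Whether the replicates came from separate passages is not stated, so p-values measure the spread between these cultures.

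SLC25 proteins carry metabolites, nucleotides, cofactors and metal ions across membranes, in most cases the inner mitochondrial membrane, which is otherwise nearly impermeable to them. Each carrier alternates between a state open to the intermembrane space and a state open to the matrix, and many exchange a cytosolic solute for a matrix solute. In proximal tubule cells, which rely on oxidative metabolism, such exchange links the cytosol to respiration, ammonia handling and gluconeogenesis. The sequences of the members were not used here.

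The arrays were alike in scale, with medians of 5.59 to 5.67 log2 units, and correlations between replicates of a time were 0.982 to 0.995 over all probe sets. Replicate 1 stood slightly apart, with a mean correlation of 0.988 with the other replicates of its time against 0.991 for each of replicates 2 and 3. Epithelial markers (3 of 3 measured) and proximal tubule markers (5 of 5 measured) lay above the median of every array. Endothelial markers (3 measured) lay below it on every array. Of 3 leukocyte markers PTPRC was far below the medians at a mean log2 signal of 2.86 at 0 h, while CD3E was above the median on all 18 arrays and CD14 on 3. Of 4 fibroblast markers, COL1A1 was above it on all 18 and COL3A1 on 16. Some of these markers moved at 4 h: the log2 difference from 0 h was 0.93 for COL1A1, 0.49 for KRT8, -0.41 for LRP2, -0.88 for SLC34A1 and -0.45 for SLC5A2, each called by limma. The others were not called: EPCAM (0.48) and KRT18 (0.53) of the epithelial list, HNF4A (0.31) and CUBN (-0.36) of the proximal tubule list, and COL3A1 (-0.04), PDGFRB (0.15) and DCN (0.34) of the fibroblast list. PDGFRB and DCN lay below the median of all 18 arrays. The mean log2 signal over the 5 proximal tubule markers ran from 9.44 to 9.68 on the 0 h arrays and from 9.19 to 9.22 on the 4 h arrays, and over the 4 fibroblast markers from 4.67 to 4.76 and from 4.91 to 5.13. The part of these shifts in the carrier results was not tested. Less RNA per cell and fewer cells of a kind cannot be told apart in such samples.

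Over the whole course, some carriers were called against 0 h, with changes of up to 3.06-fold, and the others were not called. A gene was called when its p from limma, a linear model fitted over all probe sets, was under 0.05 after Benjamini-Hochberg adjustment. No carrier passed at 0.5 h, beside 0.227% of all named genes (0.202% higher and 0.0243% lower). The 1 h arrays gave 2 carriers, both higher, beside 0.882% of all named genes (0.777% higher and 0.105% lower). After 4 h there were 10, beside 16.4%. After 8 h there were 2, both higher, beside 7.9% (4.33% higher and 3.58% lower). After 12 h 1 carrier was called, higher, beside 3.27% (1.52% higher and 1.75% lower). At an unadjusted p under 0.05 the numbers of carriers were 2, 5, 16, 10 and 8 in the order of the times, beside 3.41%, 5.97%, 29.1%, 22.3% and 16.5% of all named genes. In the 5 comparisons with 0 h, 11 of the 33 carriers were called at least once and 22 were not. The same tally was not made for all named genes. By the moderated F test, which asks for a change at any time, 27.3% of carriers and 19.2% of all named genes were called.

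**Figure D1:**
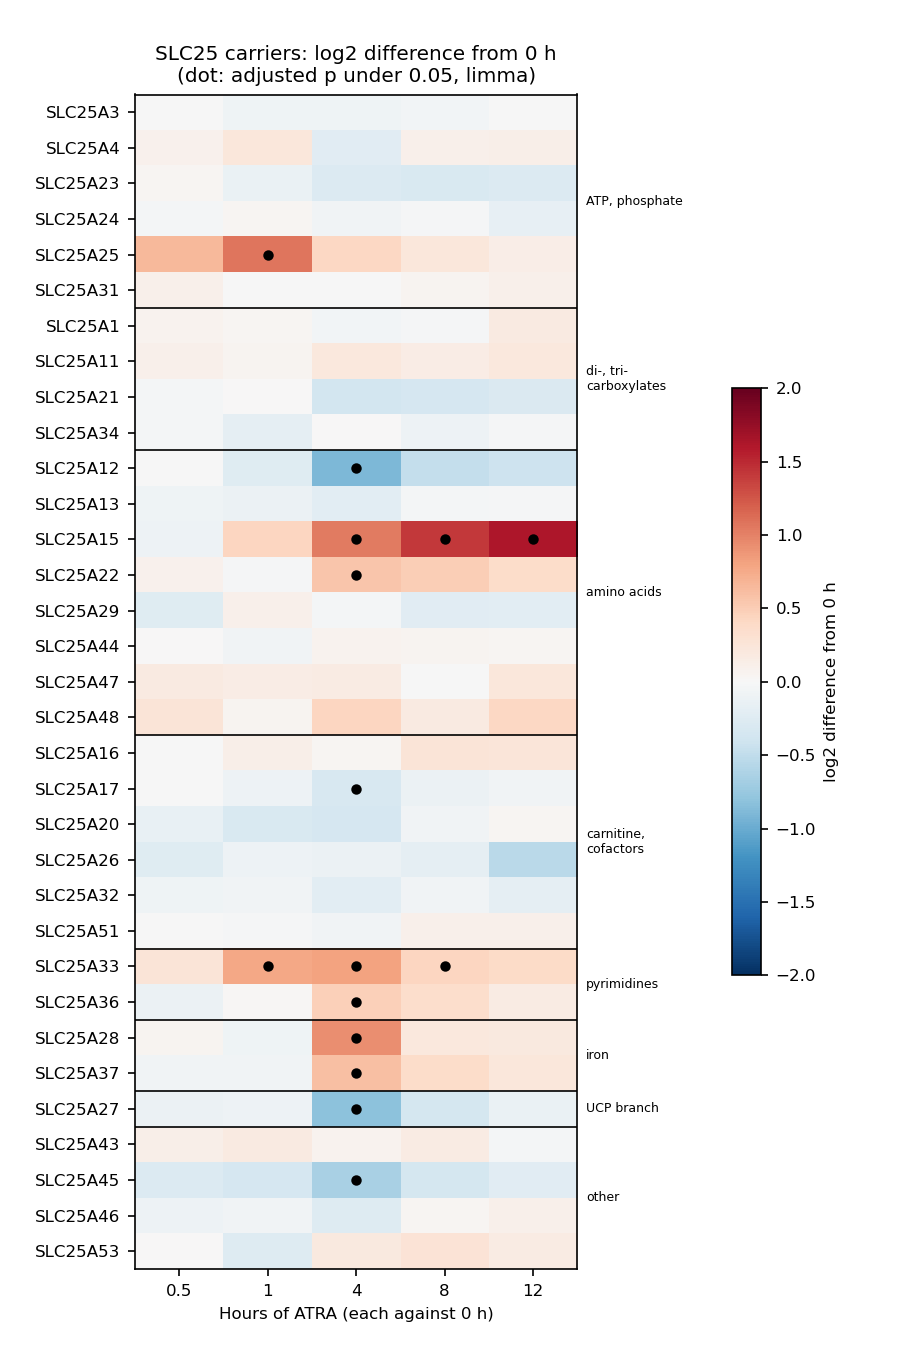
Log2 difference from 0 h (colour) for the 33 SLC25 carriers (rows, grouped by the kind of substrate, with SLC25A47 and SLC25A48 listed under amino acids though their substrates are less settled) after 0.5, 1, 4, 8 and 12 h of ATRA (columns); each cell is the difference between means of 3 arrays, and a dot marks an adjusted p under 0.05 in limma. Most dots stand in the 4 h column, and SLC25A15 is the row with dots at 4, 8 and 12 h.

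At 4 h, 6 carriers were called higher and 4 lower, which is 18.2% and 12.1% of the family. Of all named genes 7.89% were called higher and 8.53% lower at that time. The median log2 difference was -0.05 over the carriers and 0.01 over all named genes. The median absolute log2 difference was 0.23 over the carriers and 0.17 over all named genes. The count of 4 lower carriers dropped to 2 without replicate 2 of 0 h and to 2 without replicate 3 of 4 h. With the replicate number as a block, 8 were higher and 7 lower, and the fit of 6 arrays called 2 higher and 2 lower. Without replicate 2 of every time, which leaves 2 arrays per time, 1 was called higher and 0 lower at 4 h. Without replicate 3 of every time, 2 were higher and 0 lower. Shares of all named genes were not counted under these alternative fits, so the 7.89% and 8.53% do not match them.

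**Figure D2:**
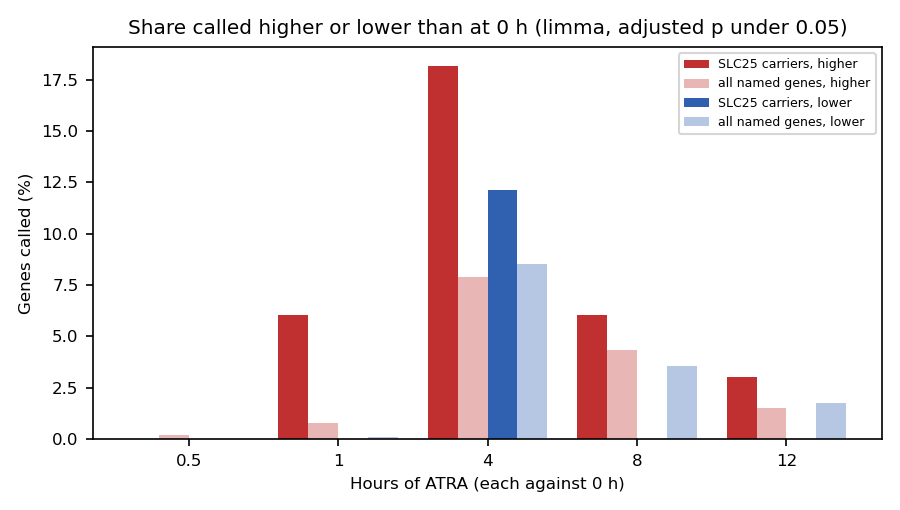
Share of genes called higher (red) or lower (blue) than at 0 h by limma, in percent, for the 33 SLC25 carriers (dark bars) and all 12361 named genes (pale bars) at 5 times. At 4 h the carriers' bars stand at 18.2% and 12.1% and those of all named genes at 7.89% and 8.53%; the shares of the carriers rest on 6 and 4 genes.

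Amino acid carriers held both the largest rise and the largest fall of the family. SLC25A15, the ornithine carrier that feeds the urea cycle and ornithine metabolism (probe set 15203730), had log2 signals of 7.73, 7.54 and 7.51 on the 0 h arrays. They were 8.83, 8.50 and 8.56 at 4 h and 8.82, 9.14 and 9.08 at 8 h. At 12 h they were 9.13, 9.26 and 9.23. Every array from 4 h on lay above every 0 h array. SLC25A15 rose 2.05-fold at 4 h (log2 difference 1.04 ± 0.14 SE, adjusted p = 0.000193 in limma) and 2.68-fold at 8 h (1.42 ± 0.14, adjusted p = 8.45e-05). At 12 h it stood 3.06-fold higher (1.61 ± 0.14, adjusted p = 4.08e-05). All 3 calls held in each of 18 fits that left out 1 array. Without replicate 2 of every time the 8 h and 12 h calls were lost (adjusted p = 0.0879 and 0.0658), and without replicate 3 of every time the 12 h call was (0.0511).

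The timing of the SLC25A15 rise could be placed only in part. At 0.5 h its log2 signals were 7.77, 7.38 and 7.33, which overlapped the 0 h values. At 1 h they were 8.19, 8.08 and 7.80, all above the 0 h values, and the log2 difference of 0.43 was not called (adjusted p = 0.333 in limma, 95% interval 0.13 to 0.73). The step from 1 to 4 h was called (log2 difference 0.60 ± 0.14, adjusted p = 0.0104), though not without replicate 3 of 1 h (adjusted p = 0.0602). The steps from 4 to 8 h (0.38) and from 8 to 12 h (0.19) were not called. No carrier other than SLC25A15 was called at 12 h, though the fit without dim probe sets called 2 higher and 1 lower, and the fit without replicate 1 of 4 h called 2 higher.

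Among the 2371 named genes that changed at some time by the moderated F test, those whose 6 time means followed SLC25A15 most closely were DHRS3, SLC16A10, MARCH3, BTBD9 and CTSO. Pearson correlations over the 6 means ran from 0.988 for CTSO to 0.992 for DHRS3. DHRS3 encodes a retinaldehyde reductase and SLC16A10 an aromatic amino acid transporter of the cell surface. None of the 5 belongs to the SLC25 family. The 6 means come from the same 18 arrays for all genes, so these values only describe likeness. Among the carriers changed by the F test, the correlation with SLC25A15 was highest for SLC25A36 at 0.741.

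SLC25A12, also known as aralar, exchanges mitochondrial aspartate for cytosolic glutamate in the malate-aspartate shuttle. Its log2 signals (probe set 15239883) were 8.38, 8.20 and 8.24 at 0 h and 7.76, 7.10 and 7.26 at 4 h. All of the 4 h arrays lay below all of the 0 h arrays, with replicate 1 the least low. The fall was 1.87-fold (log2 difference -0.90 ± 0.15 SE, adjusted p = 0.000807 in limma), and it was also called from 1 to 4 h (-0.65 ± 0.15, adjusted p = 0.00846). The 4 h call was lost without replicate 2 of every time and without replicate 3 of every time. The fit of 6 arrays did not call the step from 1 to 4 h. At 8 and 12 h the log2 differences from 0 h were -0.48 (adjusted p = 0.0668) and -0.41 (adjusted p = 0.176), which missed the threshold.

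Its close relative SLC25A13, also called citrin, carries out the same exchange and was not called at any time. The log2 signals of SLC25A13 were 9.64, 9.46 and 9.42 at 0 h and 9.52, 9.14 and 9.23 at 4 h, so the groups overlapped. Its log2 difference at 4 h was -0.21 with a 95% interval of -0.44 to 0.02. Both paralogs were lower on average at 4 h, and whether their changes differ was not tested.

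SLC25A22, a carrier of glutamate with protons (probe set 15253495), had log2 signals of 7.57, 7.63 and 7.97 at 0 h and 8.25, 8.22 and 8.38 at 4 h. The 4 h values lay above the 0 h values, in which replicate 3 was the highest. SLC25A22 rose 1.47-fold at 4 h (log2 difference 0.56 ± 0.17 SE, adjusted p = 0.0392 in limma). The call was lost in 8 of 18 fits without 1 array: replicates 1 and 2 of 0 h, replicate 2 of 0.5 h, of 1 h and of 12 h, and any replicate of 4 h, with an adjusted p of up to 0.146. It was lost as well without replicate 1 of every time (adjusted p = 0.0805). The step from 1 to 4 h (0.57, adjusted p = 0.0389) was also lost in 8 such fits, those without replicate 2 of 0.5 h or of 12 h or without any replicate of 1 h or 4 h. SLC25A29 and SLC25A44, and SLC25A47 and SLC25A48, which are listed in this group though their substrates are less settled, were not called at any time. SLC25A44 carries branched-chain amino acids and stayed at a log2 difference of 0.07 at 4 h (95% interval -0.10 to 0.25).

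SLC25A25 and SLC25A33 were the 2 carriers called at 1 h. SLC25A25 exchanges ATP-magnesium for phosphate under the control of calcium (probe set 15190797). Its log2 signals were 5.51, 5.48 and 5.63 at 0 h, then 6.29, 6.14 and 6.13 at 0.5 h. They reached 6.33, 6.57 and 6.95 at 1 h and were 5.86, 5.92 and 6.06 at 4 h. The arrays of 0.5, 1 and 4 h all lay above those of 0 h. SLC25A25 rose 2.11-fold at 1 h (log2 difference 1.08 ± 0.13 SE, adjusted p = 0.00029 in limma), a call that held in all 18 fits without 1 array and was lost without replicate 2 of every time (adjusted p = 0.133). The log2 difference of 0.65 at 0.5 h was not called (adjusted p = 0.0733).

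From 1 to 4 h SLC25A25 fell 1.59-fold (log2 difference -0.67 ± 0.13, adjusted p = 0.00368). At 4 h it was still at a log2 difference of 0.41 from 0 h, which was not called (adjusted p = 0.0563) but passed with the replicate number as a block (adjusted p = 0.0372). By 12 h the difference was 0.13 (95% interval -0.15 to 0.42). Signals at 0 h were close to the array medians, and 6 of 18 arrays had SLC25A25 below their own median.

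The other adenine nucleotide and phosphate carriers, 5 measured, were not called at any time. SLC25A24, another calcium-regulated ATP-magnesium carrier, had a log2 difference of 0.04 at 1 h and -0.08 at 4 h. SLC25A23, of the same subgroup, had -0.28 at 4 h (adjusted p = 0.0887, and 0.048 with the replicate block). SLC25A3, which imports the phosphate used by ATP synthase, had log2 signals of 11.52, 11.57 and 11.53 at 0 h and 11.60, 11.40 and 11.39 at 4 h. The log2 difference of SLC25A3 at 4 h was -0.08 with a 95% interval of -0.25 to 0.09. SLC25A4, an exchanger of ADP for ATP, was at -0.23 (95% interval -0.54 to 0.08). SLC25A31, a germ cell form of that exchanger, had a mean log2 signal of 2.23, below the median of all 18 arrays, so its missing call says little.

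**Figure D3:**
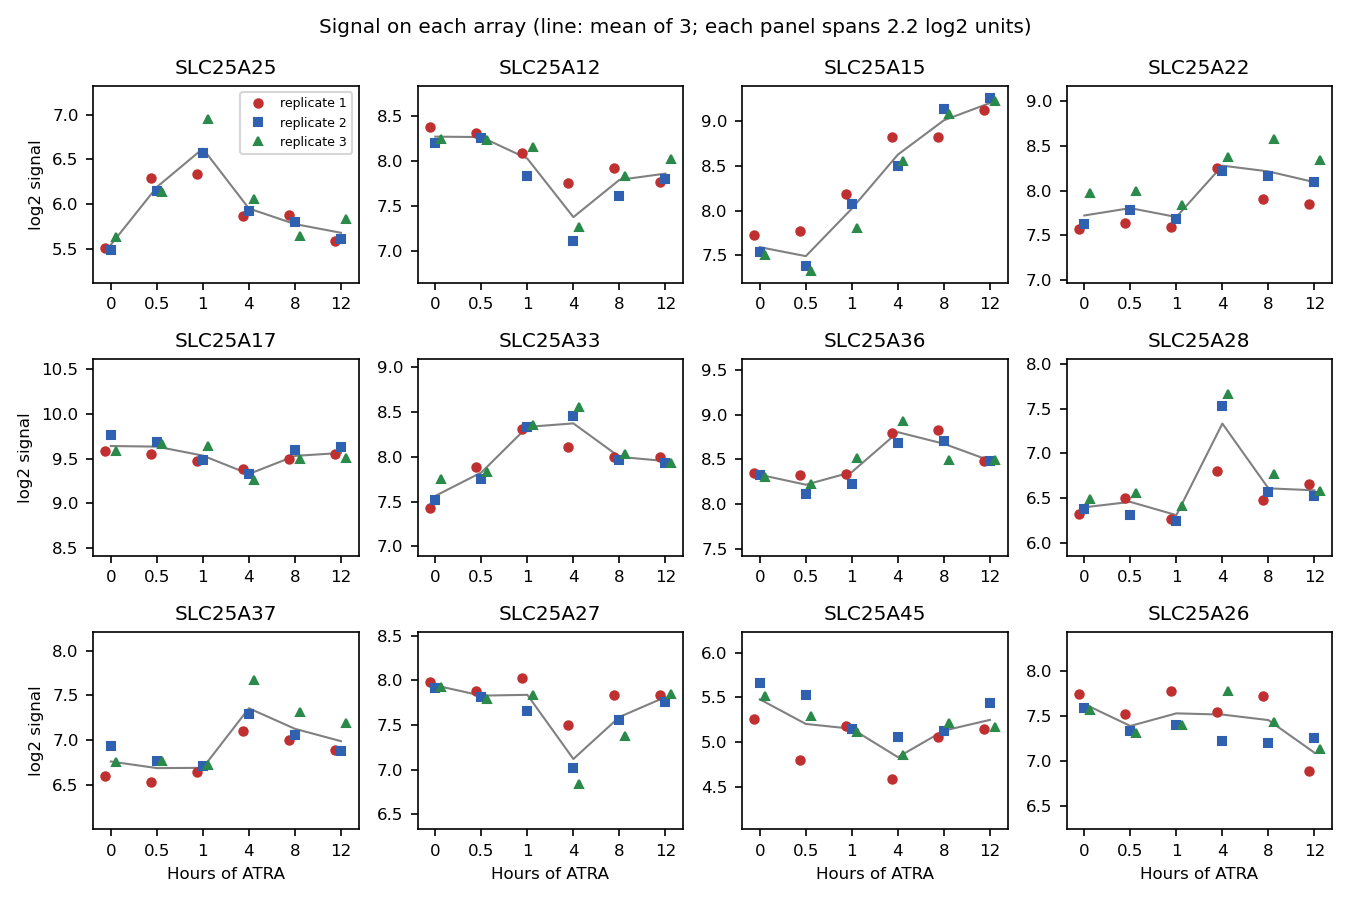
Log2 signal on each array (red circles replicate 1, blue squares replicate 2, green triangles replicate 3) and mean of the 3 arrays (grey line) at each time of ATRA, for the 11 carriers called against 0 h and for SLC25A26, which was not called. Each panel spans 2.2 log2 units around its own middle; SLC25A15 climbs through 12 h, SLC25A25 peaks at 1 h, and SLC25A12, SLC25A27 and SLC25A28 have their extreme at 4 h.

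Both measured pyrimidine nucleotide carriers, which supply precursors for mitochondrial DNA and RNA synthesis, were higher at 4 h. SLC25A33 (probe set 15298409) had log2 signals of 7.42, 7.51 and 7.75 at 0 h, 8.31, 8.34 and 8.36 at 1 h and 8.11, 8.45 and 8.56 at 4 h. The 1 h and 4 h values lay wholly above the 0 h values. SLC25A33 rose 1.71-fold at 1 h (log2 difference 0.77 ± 0.11 SE, adjusted p = 0.00121 in limma) and 1.75-fold at 4 h (0.81 ± 0.11, adjusted p = 0.000193). It was 1.35-fold higher at 8 h (adjusted p = 0.0268). The 8 h call was lost without replicate 1 or 2 of 0 h or any replicate of 8 h, where the adjusted p reached 0.113, and without replicate 1 of every time (0.0607). Without replicate 2 of every time, the 1 h, 4 h and 8 h calls of SLC25A33 were all lost. The count of 2 carriers called higher at 8 h, SLC25A15 and SLC25A33, dropped to 1 without replicate 1 of 0 h, replicate 2 of 0 h or replicate 2 of 8 h. No carrier was called lower at 8 h by limma, while 3 were lower at an unadjusted p under 0.05. The fit of 6 arrays called 0 lower, quantile normalization 1, and the fit without dim probe sets 2 lower beside 4 higher.

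SLC25A36 (probe set 15216974) was called at 4 h and at no other time against 0 h. Its log2 signals were 8.35, 8.33 and 8.30 at 0 h, 8.34, 8.22 and 8.51 at 1 h and 8.80, 8.68 and 8.93 at 4 h. The 1 h values enclosed those of 0 h, and the 4 h values lay above both. SLC25A36 rose 1.39-fold at 4 h (log2 difference 0.48 ± 0.11 SE, adjusted p = 0.00647 in limma). That call was lost without replicate 2 of every time. The step from 1 to 4 h was called for SLC25A36 (0.45, adjusted p = 0.0114), but leaving out replicate 2 of 1 h or replicate 3 of 4 h ended this call, with an adjusted p of up to 0.0696. For SLC25A33 the same step gave a log2 difference of 0.04 (adjusted p = 0.913). Whether the times of the 2 rises differ was not tested.

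Both mitoferrins, which import the iron used for heme and iron-sulfur clusters, rose at 4 h. SLC25A28, or mitoferrin 2 (probe set 15233822), had log2 signals of 6.32, 6.37 and 6.49 at 0 h and 6.26, 6.24 and 6.41 at 1 h. They rose to 6.80, 7.53 and 7.66 on the 4 h arrays and were 6.48, 6.57 and 6.77 at 8 h. Every 4 h array was above every array of the other 3 times, replicate 1 by the least. SLC25A28 rose 1.91-fold at 4 h (log2 difference 0.94 ± 0.17 SE, adjusted p = 0.00153 in limma). From 1 to 4 h it rose 2.03-fold (adjusted p = 0.000945). Its 4 h call was lost without replicate 2 of every time, and the fit of 6 arrays did not call the step from 1 to 4 h. From 4 to 8 h SLC25A28 fell 1.65-fold (-0.72 ± 0.17, adjusted p = 0.0277). This call ended when replicate 2 or 3 of 4 h, or replicate 1 or 2 of 8 h, was left out, the adjusted p reaching 0.146.

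SLC25A37, or mitoferrin 1 (probe set 15223295), had log2 signals of 6.60, 6.93 and 6.75 at 0 h and 7.10, 7.29 and 7.68 at 4 h. The groups did not overlap, and replicate 3 was the highest at 4 h. SLC25A37 rose 1.51-fold (log2 difference 0.60 ± 0.14 SE, adjusted p = 0.0118 in limma). Leaving out replicate 1 of 0 h or replicate 3 of 4 h ended this call, with an adjusted p of up to 0.0725. The step from 1 to 4 h was called as well (0.67 ± 0.14, adjusted p = 0.00682). At 12 h the mitoferrins were at log2 differences of 0.19 and 0.23 from 0 h, neither of them called. Of 4 measured heme and iron-sulfur cluster enzymes, 0 were called at 4 h by limma, beside 16.4% of all named genes. Their median log2 difference was -0.19, and the replicate block called 1 lower. For so few genes the missing calls say little.

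SLC25A27, or UCP4, of the uncoupling protein branch (probe set 15310223) dipped at 4 h. Its log2 signals were 7.99, 7.92 and 7.93 at 0 h, 7.50, 7.02 and 6.84 at 4 h and 7.84, 7.76 and 7.84 at 12 h. The 4 h arrays lay below all others of these times. SLC25A27 fell 1.77-fold at 4 h (log2 difference -0.82 ± 0.15 SE, adjusted p = 0.00174 in limma) and fell by the same test from 1 to 4 h (-0.72 ± 0.15, adjusted p = 0.00522). Its 4 h call was lost without replicate 2 of every time and without replicate 3 of every time. In the fit of 6 arrays the step from 1 to 4 h was not called. The return from 4 to 8 h was a log2 difference of 0.47, not called (adjusted p = 0.109) but passing with the replicate block (0.025). At 12 h the difference from 0 h was -0.13 with a 95% interval of -0.45 to 0.19.

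Of 6 carriers of carnitine, cofactors and vitamins, 1 fell at 4 h. SLC25A17, a peroxisomal carrier of coenzyme A and related cofactors (probe set 15287307), had log2 signals of 9.58, 9.76 and 9.58 at 0 h and 9.39, 9.33 and 9.27 at 4 h. The 4 h values lay below the 0 h values by a small margin. The fall was 1.24-fold (log2 difference -0.31 ± 0.08 SE, adjusted p = 0.0219 in limma), and it did not pass when replicate 2 of 0 h or either replicate 2 or 3 of 4 h was left out, where the adjusted p reached 0.114. SLC25A20, which brings acylcarnitines in for fatty acid oxidation, had a log2 difference of -0.33 at 4 h (adjusted p = 0.11, and 0.0351 with the replicate block). SLC25A32, which carries folate and FAD, was at -0.22 (95% interval -0.57 to 0.14) and SLC25A51, the NAD carrier, at -0.07 (-0.27 to 0.13). SLC25A16, linked to coenzyme A transport, was at 0.04 (-0.16 to 0.23).

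SLC25A26, which imports S-adenosylmethionine for mitochondrial methylation (probe set 15216093), showed the largest log2 difference among the carriers not called against 0 h. Its log2 signals were 7.74, 7.60 and 7.57 at 0 h and 6.89, 7.25 and 7.14 at 12 h. All of the 12 h arrays lay below all of the 0 h arrays, replicate 1 by the most. The log2 difference was -0.54 ± 0.16 SE (adjusted p = 0.091 in limma).

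Carriers of di- and tricarboxylates, 4 measured, had no call at any time. SLC25A1, which exports citrate for lipid synthesis, was at a log2 difference of -0.05 at 4 h (95% interval -0.35 to 0.24). SLC25A11, which exchanges oxoglutarate for malate, was at 0.22 (-0.02 to 0.45). SLC25A21, a carrier of oxodicarboxylates from lysine and tryptophan breakdown, was at -0.37 (adjusted p = 0.194, 95% interval -0.74 to -0.01), and SLC25A34, whose substrate is less settled, at 0.00.

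Among 4 members of the outer membrane or without a settled substrate, SLC25A45 fell at 4 h. Its log2 signals (probe set 15254088) were 5.26, 5.66 and 5.52 at 0 h and 4.59, 5.05 and 4.85 at 4 h, with no overlap. The fall was 1.57-fold (log2 difference -0.65 ± 0.17 SE, adjusted p = 0.016 in limma). SLC25A45 was below the median of 17 of 18 arrays, and its call ended when replicate 2 or 3 of 0 h, or replicate 1 or 3 of 4 h, was left out, the adjusted p reaching 0.0801. SLC25A46, which sits in the outer membrane and takes part in mitochondrial dynamics, was at -0.26 (adjusted p = 0.0737, while the block gave 0.0283). SLC25A53 was not called against 0 h but rose from 1 to 4 h (0.45, adjusted p = 0.0208), which ended when replicate 1 or 3 of 1 h, or replicate 3 of 4 h, was left out, the adjusted p reaching 0.121. SLC25A48, a dim member with a mean log2 signal of 4.28, had a 4 h difference of 0.43 (adjusted p = 0.0653, while the block gave 0.0375). SLC25A43 stayed at 0.07 (95% interval -0.21 to 0.35).

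**Figure D4:**
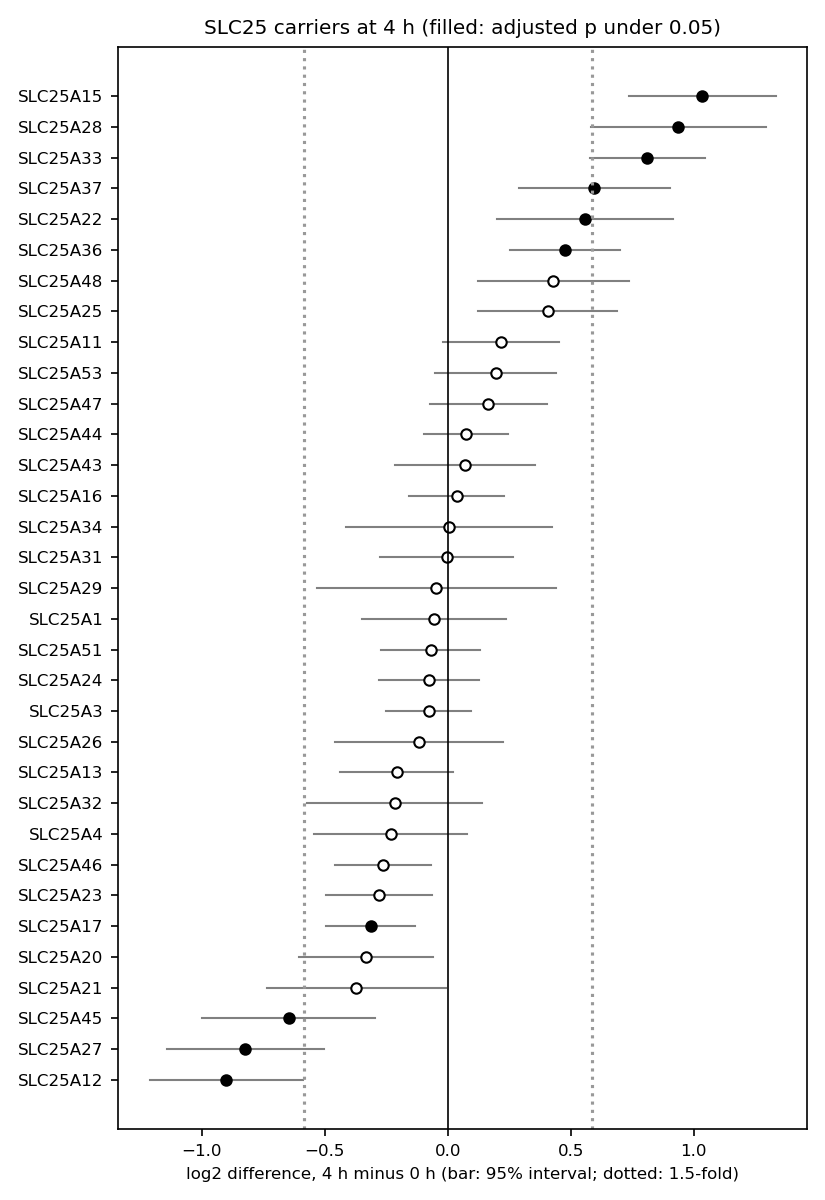
Log2 difference between 4 h and 0 h (points, means of 3 arrays each) with its 95% interval (bars) for the 33 SLC25 carriers, ordered by size; filled points were called by limma and dotted lines mark a 1.5-fold change. SLC25A15, SLC25A28 and SLC25A33 stand highest, SLC25A12 and SLC25A27 lowest, and the intervals of 20 carriers lie wholly between the dotted lines.

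The intervals show how far the data bound a change in the carriers that were not called. For 20 of 33 carriers the 95% interval of the 4 h difference lay within a 1.5-fold change in either direction. Over all named genes that share was 64.4%. For 16 of the 22 carriers not called against 0 h, all 5 intervals against 0 h lay within 1.5-fold, SLC25A1, SLC25A3, SLC25A4, SLC25A11 and SLC25A13 among them. The 16 also include SLC25A31, which lay below the median of all 18 arrays, so its narrow intervals say little. Among all 33 carriers the count was 17, and the matching share of all named genes was not counted. The other 6 of the 22 uncalled carriers were SLC25A20, SLC25A21, SLC25A26, SLC25A29, SLC25A34 and SLC25A48. For these a change past 1.5-fold at some time is within the interval. The second probe sets of SLC25A29 and SLC25A47 were not called at any of the 5 times either.

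Read by non-overlap alone, 17 carriers had 4 h values wholly above or below the 0 h values, beside 31.6% of all named genes. The 12 h values of 15 carriers were so placed, beside 29.7% of all named genes, while limma called 1. The 8 h values of 11 were, beside 26.3%. The earliest times gave 4 carriers at 0.5 h (beside 10.5%) and 8 at 1 h (beside 12.5%). By limma no carrier was called at 0.5 h, with 2 at an unadjusted p under 0.05, 0 in the fit of 6 arrays and 1 without dim probe sets, without replicate 1 of 1 h or without replicate 3 of 1 h. The moderated F test called 9 carriers (27.3%), beside 19.2% of all named genes; these were SLC25A12, SLC25A15, SLC25A25, SLC25A27, SLC25A28, SLC25A33, SLC25A36, SLC25A37 and SLC25A53.

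The 3 steps tested between successive times were 1 to 4 h, 4 to 8 h and 8 to 12 h. From 1 to 4 h 6 carriers were called higher and 3 lower by limma, beside 7.39% of all named genes called higher and 6.22% lower, or 13.6% in all. The 6 were SLC25A15, SLC25A22, SLC25A28, SLC25A36, SLC25A37 and SLC25A53, and the 3 were SLC25A12, SLC25A25 and SLC25A27. The count of 6 dropped to 3 without replicate 3 of 1 h and to 3 without replicate 3 of 4 h, and the fit of 6 arrays called 0 in either direction. From 4 to 8 h 1 carrier, SLC25A28, was called lower and none higher, beside 1.8% of all named genes called lower, 2.32% higher and 4.13% in all. Without replicate 1 of 4 h, 3 were called higher and 2 lower in that step, and the block gave 2 higher (SLC25A27 and SLC25A46) and 2 lower (SLC25A28 and SLC25A33). From 8 to 12 h limma called none, with 1 carrier at an unadjusted p under 0.05, 0 in the fit of 6 arrays and 0% of all named genes called (5.95% at an unadjusted p under 0.05).

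Genes that work with the carriers were taken from a list of 92 symbols, of which 56 were measured. The list was chosen with earlier results of these data known, so its shares and those of its groups only describe. At 4 h 10 were called higher and 1 lower by limma, or 19.6%, beside 16.4% of all named genes (7.89% higher and 8.53% lower). At 8 h 6 were higher and 1 lower (12.5%, beside 7.9%), and at 12 h 1 was higher and 0 lower by limma (1.79%, beside 3.27%; 18 had an unadjusted p under 0.05). Fits of 6 arrays called 4 higher at 4 h, 2 at 8 h and 0 at 12 h, with 0 lower at each, and the fit without dim probe sets called 6 higher at 12 h. Without replicate 3 of 4 h, 5 were higher at 4 h. The largest rise was that of PPRC1, a coactivator of nuclear genes for mitochondrial proteins, with log2 signals of 7.09, 7.24 and 7.47 at 0 h and 8.76, 9.44 and 9.44 at 4 h. It rose 3.85-fold at 4 h (log2 difference 1.95 ± 0.17 SE, adjusted p = 8.2e-06) and was 1.79-fold higher at 8 h.

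Enzymes of polyamine synthesis, which start from ornithine, included AMD1 and SRM among the rises. AMD1, S-adenosylmethionine decarboxylase, had log2 signals of 9.52, 9.74 and 9.92 at 0 h and 10.29, 10.96 and 11.01 at 4 h. It rose 2.04-fold (log2 difference 1.03 ± 0.18 SE, adjusted p = 0.00115 in limma). SRM, spermidine synthase, rose 1.70-fold (0.77 ± 0.18, adjusted p = 0.00949), a call lost without replicate 3 of 4 h (adjusted p = 0.0557). Of 9 measured genes of ornithine, arginine and polyamine metabolism these 2 were called higher at 4 h, beside 7.89% of all named genes, and the median log2 difference of the 9 was -0.12.

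Of 6 measured folate enzymes, 3 were called higher at 4 h (beside 7.89% of all named genes) and 3 at 8 h (beside 4.33%). They were SHMT2, MTHFD1L and ALDH1L2 at both times. The others were not called at 4 h. MTHFD1, a cytosolic enzyme, was at a log2 difference of -0.15. MTHFD2L was at -0.165 and MTHFD2 at 0.40 (adjusted p = 0.196 in limma, and 0.0129 with the replicate block). The 4 h calls of SHMT2 and ALDH1L2 were lost when replicate 2 of 0 h or replicate 3 of 4 h was omitted, that of ALDH1L2 also without replicate 3 of 0 h, with an adjusted p of up to 0.106. MTHFD1L, which releases formate from mitochondria, had log2 signals of 7.92, 7.54 and 7.56 at 0 h and 8.58, 8.48 and 8.56 at 8 h. It rose 1.83-fold at 8 h (log2 difference 0.87 ± 0.12 SE, adjusted p = 0.000935 in limma). ALDH1L2, which oxidizes formyl-folate, rose 1.70-fold at 8 h (0.77 ± 0.14, adjusted p = 0.0043). SHMT2, serine hydroxymethyltransferase, was chosen after its values were seen, and its 8 h call (adjusted p = 0.0491) held in 5 of 18 leave-one-out fits, those omitting replicate 1 of 0.5 h, 1 h, 8 h or 12 h or replicate 3 of 1 h. SLC25A32 itself was not called at either time.

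The TIM22 route inserts carriers into the inner membrane, and 2 of its 9 measured genes were called higher at 4 h, beside 7.89% of all named genes. TIMM8A, a small chaperone of the intermembrane space, had log2 signals of 7.29, 7.00 and 7.43 at 0 h and 7.77, 8.30 and 8.63 at 4 h, and rose 1.99-fold (log2 difference 0.99 ± 0.18 SE, adjusted p = 0.00175 in limma). The other was TIMM9 (0.36, adjusted p = 0.0431), chosen after its values were seen. Its call failed in 9 of 18 leave-one-out fits, those omitting replicate 1 or 3 of 0 h, 2 or 3 of 0.5 h, 3 of 1 h, 2 or 3 of 4 h, 2 of 8 h or 2 of 12 h, with an adjusted p of up to 0.172. At 8 h TIMM8A was 1.79-fold higher (adjusted p = 0.0119). Omitting replicate 2 of 0 h or replicate 3 of 8 h raised that p past the threshold, to 0.0727 at most.

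Of the 56 measured partner genes, 1 was called lower at 4 h, beside 8.53% of all named genes. At 8 h 1 was called lower, beside 3.58%, and at 12 h 0, beside 1.75%. The log2 difference of ARG2 at 12 h was -0.46, which was not called (adjusted p = 0.114 in limma). MCU, the pore of the mitochondrial calcium uniporter, fell 1.22-fold at 4 h (log2 difference -0.29 ± 0.09 SE, adjusted p = 0.041 in limma), which failed in 9 of 18 leave-one-out fits, those omitting replicates 1 and 3 of 0 h, replicate 3 of 12 h and any replicate of 0.5 h or 4 h, the highest adjusted p being 0.168. IDH2, the mitochondrial NADP-dependent isocitrate dehydrogenase, fell 1.32-fold at 8 h (-0.41 ± 0.10, adjusted p = 0.0187), not past the threshold when any replicate of 0 h, or replicate 1 or 3 of 8 h, was left out (up to 0.0814). The partner still called at 12 h was ACACA, acetyl-CoA carboxylase, which uses exported citrate carbon, at 1.41-fold (0.50 ± 0.12, adjusted p = 0.0395). Its call at 12 h was lost without replicate 2 or 3 of 0 h, replicate 2 or 3 of 0.5 h, replicate 2 of 1 h or any replicate of 12 h, the adjusted p then reaching 0.166. None of the 3 outer membrane VDAC channels and none of the 5 measured ATP synthase and respiratory chain genes was called by limma at 4 h. Of all named genes 16.4% were called then, so for so few genes the missing calls say little. At 12 h none was called either, but 2 genes of each group had an unadjusted p under 0.05, beside 16.5% of all named genes.

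**Figure D5:**
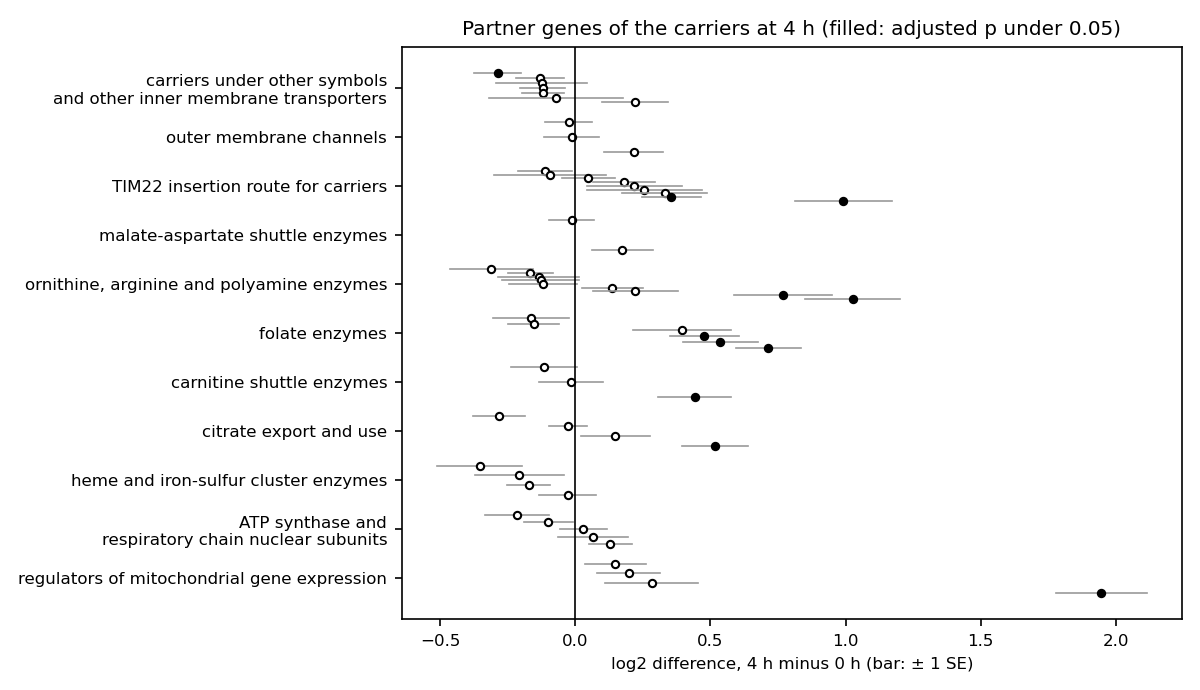
Log2 difference between 4 h and 0 h (points, means of 3 arrays each) ± 1 SE (bars) for 56 genes that work with the carriers, in rows by group; filled points were called by limma. PPRC1 stands farthest right at 1.95, AMD1 and TIMM8A lie near 1, and the sole filled point on the left is MCU at -0.29.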

How the data were processed

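The deposited table holds log2 values, 1 per probe set and array; the log base was read from their range (0.882 to 13.86) and from the authors' tool, Transcriptome Analysis Console 2.0.0.9 per the submitters' processing notes. Background correction, summarization and normalization are not given in the sources used here, and values were used unfiltered. Of 27558 probe sets, 13323 had 1 symbol, 357 several and 13878 none; 12925 matched the RefSeq annotation by Entrez identifier and 7 symbols were updated. Genome positions and sequences were not used here.

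limma 3.58.1 in R 4.3.3 fitted 1 mean per time to all 18 arrays (12 residual and 3.34 prior degrees of freedom). Tests were two-sided, adjusted over all probe sets of each comparison, and called under 0.05. The number of arrays limits precision: the median SE of a log2 difference was 0.149. The pipeline was tested on simulated data.

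Members and lists were chosen with earlier results of these data known. Named were members called against 0 h, SLC25A15, the uncalled member with the largest difference, and per time up to 4 called partner genes per direction; other members appear by role. Alternatives were a replicate block, fits of 6 arrays, quantile normalization, a filter on dim probe sets, a trended robust prior, means over a gene's probe sets, and leaving out arrays. Pairing by the replicate numbers of the labels was judged by deviations from time means. The correlation of same-numbered cultures was over 0.1 in every pair between 0 h and 0.5, 1 or 4 h (0.105 to 0.427), between 1 and 4 h and between 4 and 8 h. It was not so between 0 h and 8 h (lowest 0.0952), 0 h and 12 h (0.0505) or 8 and 12 h. Replicate 1 matched its own number best throughout. Replicate 2 matched another number better between 0 and 0.5 h (0.105 against 0.130) and between 0 and 4 h (0.142 against 0.185), among others. The choice to judge the pairing separately for each comparison was made after counts of calls with the block had been seen.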

Additional observations from a re-analysis of the deposited data

How the results depend on the processing

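All directions of the 15 calls on single carriers against 0 h were kept under every alternative run. All 15 calls held with the replicate block, quantile normalization, the trended robust prior and means over probe sets; 14 held without dim probe sets, where SLC25A45 was not tested; 8 held in fits of 6 arrays. Over the fits without 1 array, calls held 248 times and were lost 22 times. Without replicate 1, 2 or 3 of every time 13, 1 and 4 held, with 2 arrays left per time.

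Counts of called carriers (higher, then lower) moved as follows. For these and for the partner gene counts, shares of all named genes were not counted under the alternatives. With the replicate block they were 7 lower at 4 h, 5 and 2 at 8 h, 3 and 1 at 12 h, 2 and 2 from 4 to 8 h, and 14 by the F test; the pairing gave no loss of a call. In fits of 6 arrays they were 2 and 2 at 4 h, 1 higher at 8 h, 0 and 0 from 1 to 4 h and 0 lower from 4 to 8 h. Without dim probe sets they were 1 higher at 0.5 h, 4 and 2 at 8 h, 2 and 1 at 12 h, 1 and 2 from 4 to 8 h, and 14 by the F test. Quantile normalization gave 1 lower at 8 h. Leaving out 1 array, or 1 replicate of every time, gave 0 to 1 higher at 0.5 h, 0 to 2 higher at 1 h, 1 to 7 higher and 0 to 5 lower at 4 h, 0 to 3 and 0 to 1 at 8 h, 0 to 2 higher at 12 h, 0 to 6 and 0 to 4 from 1 to 4 h, 0 to 4 and 0 to 2 from 4 to 8 h, and 1 to 11 by the F test.

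Partner gene counts, whose alternatives were added after seeing the data, were with the block 3 lower at 4 h, 13 and 2 at 8 h, and 7 and 1 at 12 h. Fits of 6 arrays gave 4 and 0 at 4 h, 2 and 0 at 8 h, and 0 at 12 h. Without dim probe sets there were 2 lower at 4 h and 6 higher at 12 h, with the trended prior 2 and 3, and with quantile normalization 2 higher at 12 h. Leaving out arrays gave 1 to 13 and 0 to 1 at 4 h, 0 to 13 and 0 to 1 at 8 h, and 0 to 5 and 0 to 1 at 12 h. Fits of 6 arrays and fits with 2 arrays per time have fewer samples; the other causes were not tested. The means of SLC25A31, SLC25A45 and SLC25A48 lay under the lowest array median, and their signal over background was not assessed here.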
